A study of Homo sapiens with 15 samples.

Results

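The line carrying H-RasV12 was compared with the line carrying MekDD, both made from ARPE19, an immortal human line of retinal pigment epithelium that grows as a flat adherent sheet. The comparison used 6 of the 15 poly(A) RNA libraries of the series, 3 from each line, chosen by the line and replicate number in the labels, and RasV12 replicates 1, 2 and 3 were paired with MekDD replicates 1, 2 and 3. By the labels, both lines had first received hTERT, p53DD, cyclin D1 and CDK4R24C, the combination called T53D4. The RasV12 line then received H-RasV12 and is described as transformed, and the MekDD line received MEK-DD and is described as weakly transformed. The T53D4 line without either oncogene supplied the background level, and parental ARPE19 and AKTmyr, which is T53D4 with myristoylated AKT, were used where named. All lines grew attached to plastic in DMEM/F12 with serum. Each replicate came from its own thawed vial, passaged 2 times before RNA extraction, and there is 1 line per construct, so the p-values cover the spread between vials and not between independently made lines.

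H-Ras is a small GTPase held at the inner face of the plasma membrane, and the V12 form stays loaded with GTP. Active RAS engages several effectors, among them the RAF kinases, phosphoinositide 3-kinase and the exchange factors of the RAL GTPases. RAF phosphorylates MEK, and MEK phosphorylates ERK, which enters the nucleus and induces immediate early transcription factors together with phosphatases and Sprouty proteins that feed back on the cascade. MEK-DD carries acidic residues in place of the activating phosphorylation sites and enters the cascade below RAS and RAF. The comparison therefore sets a line driven at RAS against a line driven at MEK, the question that the pathway labels of the samples pose.

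The construct sequences separated the lines but showed a second difference between them. Levels are in CPM, read counts scaled to a common library depth with TMM factors (trimmed means of M values). The H-RasV12 row stood at 311 ± 30.3 CPM in RasV12 (SD, n = 3) and at 23.2 ± 3.42 CPM in MekDD, against 20.7 CPM in parental ARPE19, which carries no construct. The MEK-DD row held 19460, 40003 and 15051 reads in MekDD replicates 1, 2 and 3 and 3, 2 and 1 reads in RasV12. The cyclin D1 row was at 2351 ± 121 CPM in RasV12 and 270 ± 57.6 CPM in MekDD, and the CDK4R24C row at 2381 ± 23.4 against 142 ± 13.7 CPM. Parental ARPE19 had 193 and 70.8 CPM on these rows and T53D4 had 146 and 92.3 CPM, so the line labelled MekDD sat near the lines with the lowest cyclin D1 and CDK4 construct signal. The hTERT row was at 1244 ± 66.3 CPM in RasV12 and 454 ± 58.3 CPM in MekDD, and the p53DD row at 111 ± 12.4 and 32.3 ± 8.37 CPM. Every difference given for RasV12 against the line labelled MekDD thus spans the oncogene and these 4 other constructs, whose parts in it cannot be told apart. A difference of RasV12 from T53D4 likewise spans the oncogene and at least the cyclin D1 and CDK4R24C constructs. T53D4 is therefore a background that differs from RasV12 in more than the oncogene.

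Both lines kept some markers of pigment epithelium and lacked others. OTX2, a transcription factor of this epithelium, averaged 69.3 CPM in RasV12 and 73.8 CPM in MekDD, and the keratin gene KRT8 610.0 and 814 CPM. The keratin gene KRT18 averaged 206 and 296 CPM, and PMEL, a further marker, 2.44 and 4.3 CPM. Both were called lower in RasV12 by the test described with the gene counts, as were MITF and SERPINF1. The PMEL call was lost on leaving out any of 4 single libraries. OTX2, KRT8, BEST1, LRAT, RLBP1, TYR and TYRP1 were not called. RPE65, the isomerase of the visual cycle, had 1 read over the 3 RasV12 libraries and 4 over the 3 MekDD libraries. Of 28 markers of other cell types, 15 were in the count table, and their summed level was 287.5 to 352.4 CPM in RasV12 libraries and 134.1 to 197.4 CPM in MekDD libraries. CD68, a lysosomal glycoprotein used as a macrophage marker, made up most of it at 314 ± 30.4 and 161 ± 30.6 CPM, while the leukocyte gene PTPRC had 4 and 5 reads. Of 6 such markers with enough reads to test, 3 rose and 1 fell. Besides CD68, the endothelial receptor gene KDR rose from 155 to 301 reads (log2 difference 1.06, RasV12 minus MekDD, adjusted p = 0.0364 by the edgeR test described with the gene counts) and the neuronal tubulin gene TUBB3 from 49 to 121 reads (1.35, adjusted p = 0.0157). The KDR call was lost without the replicate block (adjusted p = 0.072), without MekDD replicate 1 (0.125) or 3 (0.0888) and without RasV12 replicate 2 (0.0525) or 3 (0.17). The TUBB3 call was lost without MekDD replicate 1 (0.068) and without RasV12 replicate 2 (0.0534). The endothelial gene VWF fell from 30 to 5 reads (-2.45, adjusted p = 0.0122), and PECAM1, with 10 and 8 reads, was too low to test. VWF, PTPRC and PECAM1 were named after their values were seen, and the part of other cell types in the results was not tested. Each library had 22229011 to 41679720 reads counted on genes in RasV12 and 22886528 to 36933610 in MekDD. The replicate number was a block in the test because the comparison pairs libraries by it. Libraries of the same number deviated together from their line means (r = 0.463, 0.405 and 0.377 for replicates 1, 2 and 3).

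Of 13588 genes tested with edgeR's quasi-likelihood test, 3574 (26.3%) passed a Benjamini-Hochberg adjusted p of 0.05, the threshold for every gene called higher or lower here. In RasV12, 1691 genes (12.4%) were higher and 1883 (13.9%) were lower than in MekDD. These 2 shares are the background for every count of list members below. The libraries of the 2 lines did not overlap for 4657 genes (34.3%). With a fold of at least 2 added, 554 (4.08%) were higher and 800 (5.89%) lower. Without the replicate block the counts were 967 higher and 1131 lower, and without replicate 2 in both lines 811 and 1011. Of the genes called higher, 1679 had all 3 pairs above 0, and of those called lower, 1872 had all 3 pairs below 0. The T53D4 mean lay below both lines for 780 of the 1691 genes higher in RasV12 and between the lines for 800. For the 1883 lower genes it lay above both lines for 939 and between them for 863. Log2 differences below are RasV12 minus MekDD, with the standard error (SE) of the fit.

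**Figure D1:**
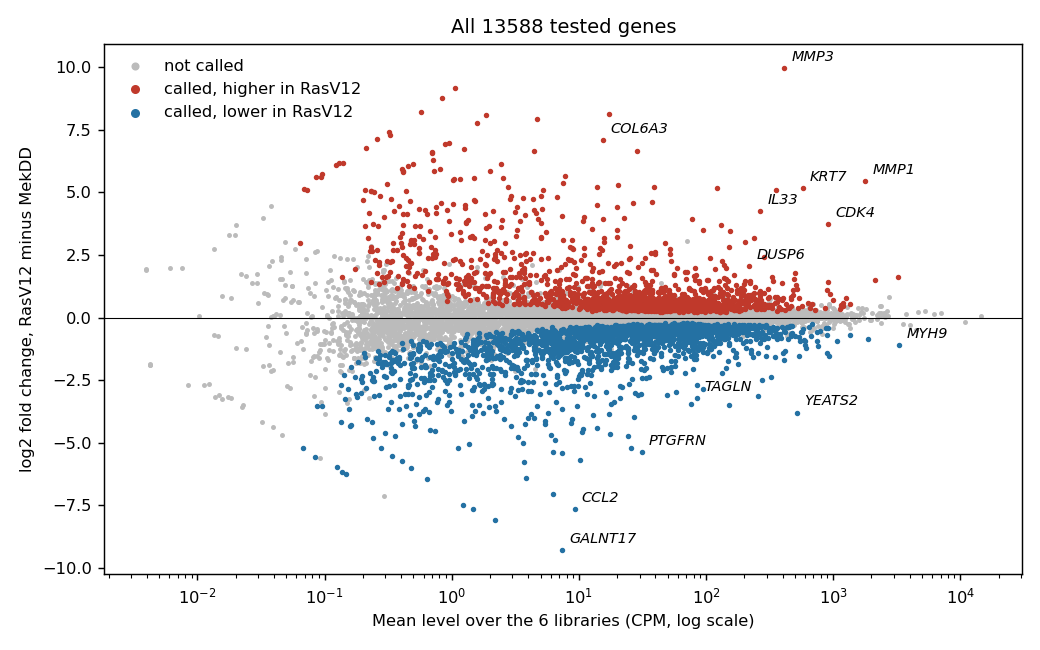
Log2 fold change (RasV12 minus MekDD, vertical axis) against the mean level over the 6 libraries (CPM, log horizontal axis) for the 13588 tested genes, with genes called higher in RasV12 in red, genes called lower in blue and the rest in grey. MMP1 and KRT7 lie high among abundant genes, and GALNT17 and CCL2 lie lowest among the genes labelled.

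The stretches upstream of 5 genes higher in RasV12 are shown because they carry, or lack, the DNA motifs linked in textbooks to ERK-driven transcription factors. They are the 150 bases before the transcription start of the RefSeq entry (build GRCh38.p14), written 5′ to 3′ on the gene's strand, with matches to the AP-1 motif TGANTCA or the CArG box in capitals. AP-1 is the dimer of FOS and JUN proteins, and the CArG box is bound by serum response factor.
TFPI2, chr7:93890754-93890903, minus strand: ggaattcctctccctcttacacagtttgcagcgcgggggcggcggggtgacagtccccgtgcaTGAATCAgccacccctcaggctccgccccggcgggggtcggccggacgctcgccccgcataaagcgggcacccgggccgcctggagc
SERPINB2, chr18:63887555-63887704, plus strand: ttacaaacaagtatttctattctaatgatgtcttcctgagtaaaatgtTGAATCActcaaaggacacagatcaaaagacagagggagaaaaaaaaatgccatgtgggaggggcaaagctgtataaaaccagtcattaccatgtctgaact
MMP10, chr11:102780629-102780778, minus strand: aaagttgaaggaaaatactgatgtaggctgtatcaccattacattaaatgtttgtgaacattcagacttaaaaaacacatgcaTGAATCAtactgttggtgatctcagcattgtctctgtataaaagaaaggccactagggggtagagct
EGR1, chr5:138465329-138465478, plus strand: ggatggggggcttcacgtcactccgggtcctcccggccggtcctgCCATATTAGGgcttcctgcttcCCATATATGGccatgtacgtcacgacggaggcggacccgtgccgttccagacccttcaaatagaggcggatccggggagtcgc
DUSP6, chr12:89352502-89352651, minus strand: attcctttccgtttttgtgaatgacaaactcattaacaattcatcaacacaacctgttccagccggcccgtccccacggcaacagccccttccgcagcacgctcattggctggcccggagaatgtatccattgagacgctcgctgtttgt
The AP-1 match began 87 bases before the start in TFPI2, 102 in SERPINB2 and 67 in MMP10. EGR1 held CArG boxes at 105 and 83 bases before its start, and DUSP6 held neither motif. The genes were picked from the ERK and protease lists by the size of their rise. EGR2, TIMP1 and TIMP4 were picked in the same way but are not printed, and their stretches held neither motif.

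Over whole RefSeq windows of 300 bases (250 before the start and 50 after it), 10894 of the 13588 tested genes (80.2%) had an entry. TGANTCA, read on both strands, was in 505 of these 10894 windows (4.64%). Among genes at least 2-fold higher in RasV12 it was in 45 of 404 (11.1%), and among genes at least 2-fold lower in 28 of 591 (4.74%). All windows in the RefSeq table, tested or not, held it in 7.76%. The ETS motif CCGGAAG, also read on both strands, was in 18.5% of tested windows, in 6.44% of those of the higher genes and in 4.4% of those of the lower genes. The TEAD motif GGAATG was in 10.9%, 10.9% and 12.9%, and the CArG box, a motif added after values were seen, in 1.06%, 1.24% and 1.52%. AP-1 letters were thus more frequent upstream of the genes with the larger rises than upstream of tested genes at large, and ETS letters were less frequent upstream of both sets of genes changed by at least 2-fold. With no fold required, ETS letters were in 256 of 1332 windows of genes called higher (19.2%) and in 123 of 1466 of genes called lower (8.39%), and AP-1 letters in 6.01% and 4.3%, so the lower ETS share of the rising genes held for those past 2-fold and not for all of them. These shares are a description, with no test, and the ETS and TEAD motifs share 4 letters without either holding the other.

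Several feedback inhibitors of the ERK cascade, DUSP4, DUSP5, DUSP6 and SPRY4 among them, were higher in RasV12. DUSP6, the phosphatase that removes phosphate from ERK in the cytoplasm (chromosome 12, 89347235-89352501, GRCh38), stood at 347, 302 and 403 CPM in RasV12 replicates 1, 2 and 3 and at 85.3, 96.9 and 71.8 CPM in MekDD. Its log2 difference was 2.05 (SE 0.18, adjusted p = 1.07e-05). All RasV12 libraries lay above all MekDD libraries, and these lay above the 8.15, 6.27 and 6.57 CPM of T53D4. SPRY4, a Sprouty protein that restrains signalling from growth factor receptors to RAF, was at 148, 100.3 and 83.3 CPM in RasV12, at 34.8, 33.9 and 24.3 CPM in MekDD and at 4.32, 2.56 and 1.57 CPM in T53D4. The groups again did not overlap (log2 difference 1.82, SE 0.18, adjusted p = 1.84e-05). DUSP5, a nuclear ERK phosphatase, was at 162, 253 and 181 against 62.2, 114 and 70.3 CPM (1.29, SE 0.15, adjusted p = 6.48e-05). DUSP4, another nuclear phosphatase, was at 235, 322 and 194 against 83.1, 142 and 134 CPM (1.10, SE 0.23, adjusted p = 0.004). In all 4 genes the lowest RasV12 library exceeded the highest MekDD library.

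Of 10 MAP kinase phosphatases tested, 3 rose (DUSP4, DUSP5 and DUSP6) and 2 fell. The falls were in DUSP8, a phosphatase of the stress kinases JNK and p38 (log2 difference -0.87), and in DUSP9 (-2.51), which was under 2 CPM in all 6 libraries. Of 6 Sprouty and SPRED genes tested, of 7 in the table, 4 rose and 1 fell, with a median log2 difference of 0.72 against 0.00 over all tested genes. SPRED3, which blocks activation of RAF, was at 26, 31.3 and 36.7 against 12.4, 13.6 and 10.5 CPM (1.37, SE 0.16). SPRY2 (0.72, SE 0.13) and SPRED2 (0.71, SE 0.10) rose by less. SPRY1 was the member that fell, at 4.02, 2.36 and 1.13 against 10.9, 3.74 and 5.54 CPM (-1.34, SE 0.35). Its libraries overlapped, and its call was lost without the replicate block (adjusted p = 0.162) and without RasV12 replicate 1 (adjusted p = 0.0552).

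**Figure D2:**
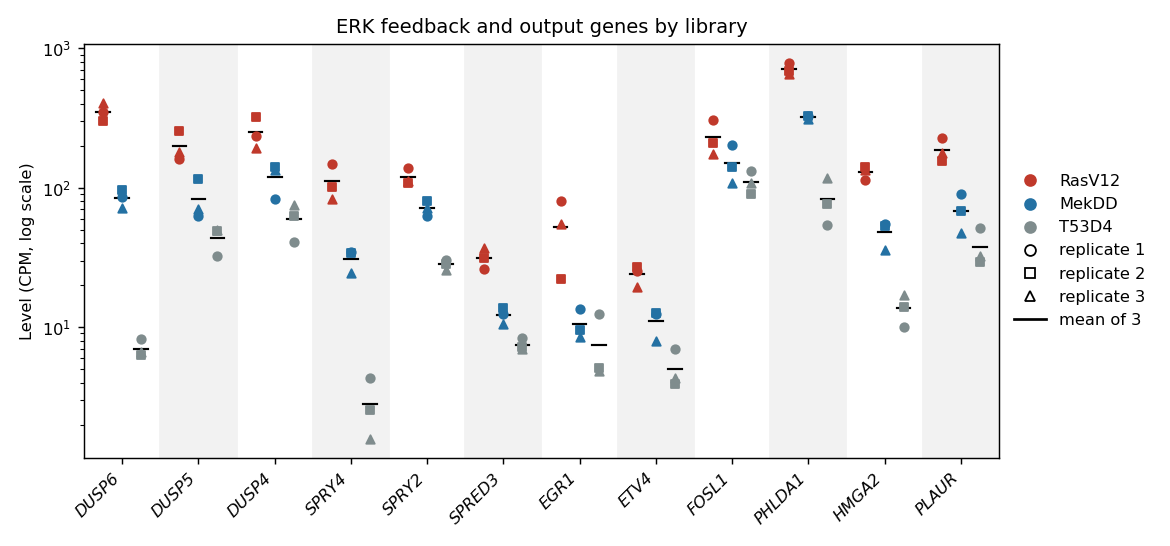
Level per library (CPM, log vertical axis) of 12 ERK feedback and output genes in RasV12 (red), MekDD (blue) and T53D4 (grey), with the replicate number as the symbol and the mean of 3 as a bar. For DUSP6 and SPRY4 the lines form 3 separate steps, and for FOSL1 the RasV12 and MekDD libraries overlap.

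Among 21 transcription factors that ERK induces, 8 rose and 2 fell, and without the replicate block 4 rose and 2 fell. EGR1, an immediate early zinc finger factor, was at 79.9, 21.9 and 54.9 CPM in RasV12 and at 13.6, 9.51 and 8.45 CPM in MekDD (2.19, SE 0.41, adjusted p = 0.00188). The libraries did not overlap, yet RasV12 replicate 2 lay well below replicates 1 and 3, and without the block the adjusted p was 0.0563. EGR2 (2.13, SE 0.29), FOSB (1.88, SE 0.33) and IER2 (1.22, SE 0.14), also immediate early genes, rose as well. FOSL1, the AP-1 subunit FRA1, was at 307, 211 and 173 against 204, 141 and 109 CPM (0.61, SE 0.16, adjusted p = 0.0122). Its 2 groups overlapped, though the RasV12 library was the higher in each pair, and the call was lost without the block (adjusted p = 0.0942), without MekDD replicate 3 (0.0669) and without RasV12 replicate 1 (0.0608). FOSL2, the AP-1 subunit FRA2, fell from 310.0 ± 53.7 CPM in MekDD to 184 ± 28.5 CPM in RasV12 (-0.74, SE 0.13).

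The PEA3 factors, ETS proteins that follow ERK activity in many epithelia, differed less. ETV4 was at 25.3, 26.9 and 19.5 against 12.4, 12.6 and 7.99 CPM (1.11, SE 0.35, adjusted p = 0.0346). Its groups did not overlap, but the call was lost without the block (adjusted p = 0.0542) and on leaving out MekDD replicate 2 (0.0809) or 3 (0.142) or RasV12 replicate 1 (0.0974) or 2 (0.124). ETV5 was at 73.4 ± 14.5 CPM in RasV12 and 59.9 ± 11.1 CPM in MekDD (log2 difference 0.28, SE 0.27, adjusted p = 0.482). MYC was at 139, 150.0 and 109 against 154, 157 and 159.6 CPM, a difference of -0.26 (SE 0.13, adjusted p = 0.149) that did not pass the test.

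Of 17 other genes that ERK signalling is known to raise, 10 rose and none fell, and without the block 7 rose. The 10 include CCND1, whose reads mix with those of the cyclin D1 construct. Their median log2 difference was 1.15. PHLDA1, a pleckstrin-domain protein used as a readout of ERK activity, was at 786, 689.7 and 654 CPM in RasV12, 327, 325 and 309 CPM in MekDD and 53.8, 75.9 and 118 CPM in T53D4 (1.15, SE 0.22, adjusted p = 0.00244). Its order of RasV12 over MekDD over T53D4 was the same as for DUSP6 and SPRY4. HMGA2, a chromatin protein of fetal tissues and tumours, was at 113, 141 and 133 against 54.8, 53 and 35.5 CPM (1.40, SE 0.24). TFPI2, an inhibitor of plasmin and other serine proteases, was at 389, 304 and 773 against 80.1, 79.5 and 102 CPM (2.42, SE 0.20, adjusted p = 6.21e-06). In both genes every RasV12 library was above every MekDD library. PHLDA1, ETV4, ETV5, FOSL2, SPRED2 and DUSP8 were named after their values were seen.

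The cascade's own genes showed no common shift. Of 30 RAS, RAF, MEK and ERK pathway genes, 4 rose (13.3%) and 6 fell (20%), with a median of -0.01, against 12.4% and 13.9% of all tested genes. HRAS itself rose from 47.4 ± 4.99 to 428 ± 46.6 CPM (3.19, SE 0.19), but its reads cannot be separated from those of the construct. MAP2K1, the gene of MEK1, was at 129.9 ± 24.1 CPM in RasV12 and 143 ± 33.3 CPM in MekDD (-0.13, SE 0.16, adjusted p = 0.588). Its span overlaps SNAPC5 on the other strand, and the strand setting of the read counting is not given in the sources used here. RASGRP1 (-1.77, SE 0.30) and RASGRP3 (-1.70, SE 0.36), exchange factors that load RAS with GTP, fell, as did the scaffold KSR1 (-1.24, SE 0.28). Of 9 EGFR family ligands and receptors, 1 rose and 1 fell. The ligand AREG was at 2.78, 2.48 and 5.05 against 0.218, 0.432 and 0.169 CPM, without overlap (3.58, SE 0.56, adjusted p = 5.80e-04). The receptor ERBB2 fell slightly (-0.49, SE 0.10). EGFR was at 203 ± 13.6 and 239 ± 37.5 CPM (-0.23, SE 0.12, adjusted p = 0.201) and the ligand HBEGF at 32.7 ± 10.3 and 21.2 ± 2.23 CPM (0.64, SE 0.25, adjusted p = 0.0821), and neither was called. HBEGF passed without RasV12 replicate 1 (0.86, adjusted p = 0.0277) and when DESeq2 was used as the test (0.65, adjusted p = 0.0445).

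Genes of the branches that RAS reaches and MEK does not were called about as often as tested genes at large, and those called were mainly lower. Of 26 tested genes of the PI3K, AKT and RAL branches, of 27 in the table, 1 rose (3.85%) and 6 fell (23.1%), with a median of -0.18. Over all tested genes the shares were 12.4% and 13.9%. The gene that rose was RALB, a RAL GTPase, at 99.4 ± 3.58 against 72.7 ± 1.32 CPM (0.45, SE 0.09), and was named, like EGFR, HBEGF and FOXO3, after its values were seen. PHLPP1, a phosphatase of AKT, fell (-0.97, SE 0.15), as did the RAC exchange factor TIAM1 (-0.99, SE 0.17), the phospholipase PLCE1 (-0.97, SE 0.20) and the PI3K regulatory subunit PIK3R1 (-0.81, SE 0.20). The PIK3R1 call was lost without MekDD replicate 3 (adjusted p = 0.0512). FOXO factors are excluded from the nucleus by AKT, and among 19 FOXO factors and targets 2 rose and 10 fell, with a median of -0.57. Without the block 2 rose and 5 fell. FOXO3 was at 63.4, 65.2 and 66.5 CPM in RasV12 and at 103, 89.3 and 99.9 CPM in MekDD (-0.58, SE 0.09, adjusted p = 4.03e-04). PDK4, a kinase that restrains pyruvate dehydrogenase, was at 3.8, 1.47 and 2.57 against 8.45, 4.5 and 6 CPM (-1.31, SE 0.22), and both genes separated the lines. TXNIP, an inhibitor of thioredoxin, fell in each pair (-1.55, SE 0.27), but its libraries overlapped and the call was lost without the block (adjusted p = 0.201). SESN3, a stress-response sestrin, moved the other way, at 12.5, 8.06 and 9.87 against 1.06, 0.89 and 0.845 CPM (3.44, SE 0.32).

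MMP1 and MMP3 had some of the largest rises among abundant genes. MMP1, interstitial collagenase (chromosome 11, 102789919-102798160, GRCh38), was at 2156, 3249.8 and 5090.2 CPM in RasV12 and at 53.2, 48.3 and 162 CPM in MekDD (5.46, SE 0.26, adjusted p = 9.77e-08). T53D4 had 0.308, 0.195 and 0.524 CPM, so MekDD was itself far above the background while RasV12 was higher still. MMP3, stromelysin 1, was at 31, 814 and 1625 against 0.156, 0.661 and 1.82 CPM (9.96, SE 0.61, adjusted p = 5.43e-07). RasV12 replicate 1 was the low library of its group and still lay far above MekDD. The MMP3 difference was 9.21 without RasV12 replicate 2 and 10.55 without RasV12 replicate 3. MMP10, stromelysin 2, was low in both lines, at 0.803, 0.615 and 2.16 against 0.343, 0.0763 and 0.211 CPM (2.39, SE 0.53, adjusted p = 0.0188). Its call was lost without the block (adjusted p = 0.0533) and on leaving out replicate 2 or replicate 3 of either line, with adjusted p up to 0.1. MMP10 was 3.17 without MekDD replicate 1 and 3.12 without RasV12 replicate 1.

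The metalloproteinase list did not move as one. Of 21 tested members, of 24 in the table, 8 rose and 6 fell, with a median of -0.19, and without the block 4 rose and 3 fell. MMP2, gelatinase A, rose from 3.02 ± 1.27 to 12.6 ± 3.63 CPM (2.15, SE 0.31), which left both lines below the 36 ± 14.8 CPM of T53D4. Among the tissue inhibitors, TIMP1 was at 675, 529 and 1127 against 308, 169 and 189.8 CPM (1.80, SE 0.25, adjusted p = 2.50e-04). TIMP3, the inhibitor bound to matrix and known for its role in the retina, was at 50.8, 68.3 and 52.6 against 169, 229.5 and 290.1 CPM (-2.01, SE 0.23, adjusted p = 6.70e-05). Neither inhibitor overlapped between lines, and they went in opposite directions. The aggrecanase ADAMTS5 was at 1.17, 1.4 and 0.631 against 17.4, 21 and 23.6 CPM (-4.43, SE 0.54), and the membrane metalloproteinase MMP24 was at 4.82, 6.31 and 5.95 against 26.5, 37.9 and 45.2 CPM (-2.74, SE 0.48). ADAMTS5 was -3.82 without MekDD replicate 3. The spans of TIMP1, TIMP3 and MMP24 overlap genes on the other strand. MMP2, MMP10, TIMP1 and TIMP3 were named after their values were seen.

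Of 8 genes of the plasminogen system, which turns plasminogen into the matrix-degrading protease plasmin, 4 rose and 1 fell, with a median of 0.86. PLAUR, the urokinase receptor, was at 228, 155 and 176 against 90.2, 68 and 47.1 CPM (1.46, SE 0.14, adjusted p = 1.68e-05), with no overlap. SERPINB2, an inhibitor of urokinase, was at 3.51, 4.28 and 74.2 against 0.374, 0.254 and 0.845 CPM (5.20, SE 0.90, adjusted p = 0.0012). RasV12 replicate 3 carried most of its reads, and SERPINB2 was 3.44 without it, 5.95 without RasV12 replicate 2 and 5.86 without the block.

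Of 24 tested genes of the interleukin-1 family and other cytokines, 7 rose, 1 fell and 16 were not called, with a median of 0.59. The list median was -0.34, 0.29 and 1.39 in pairs 1, 2 and 3, and -0.07 without RasV12 replicate 3, so it rested largely on replicate 3. IL33, an alarmin stored in the nucleus, was at 339, 235 and 955 CPM in RasV12, 17.5, 21 and 32.2 CPM in MekDD and 0.205, 0.282 and 0.715 CPM in T53D4 (4.26, SE 0.33, adjusted p = 3.26e-06). IL1B, the secreted interleukin 1 beta, was at 64.9, 109 and 536 against 3.65, 5.09 and 7.1 CPM (5.17, SE 0.66, adjusted p = 1.45e-04), and IL1A at 2.88, 2.77 and 9.19 against 0.187, 0.0763 and 0 CPM (5.56, SE 0.69). In all 3 genes RasV12 replicate 3 was the highest library and no MekDD library reached the lowest RasV12 one. Without RasV12 replicate 3, IL1B was 4.02 and IL1A 4.69, IL1B was 5.77 without RasV12 replicate 1, and IL1A was 6.49 without MekDD replicate 1. IL13RA2, a decoy receptor for interleukin 13, was at 331, 256 and 260.3 against 23.4, 28.9 and 30 CPM (3.46, SE 0.52), and was 2.79 without RasV12 replicate 1. IL18 was the member that fell, at 20.2, 20.5 and 18 against 73.1, 103 and 86.2 CPM (-2.17, SE 0.24, adjusted p = 5.04e-05).

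Of 12 tested chemokine genes, 6 rose and 2 fell, with a median of 2.29. CXCL8, the neutrophil chemokine interleukin 8, was at 79, 95.5 and 1899.6 against 17.5, 8.37 and 16.4 CPM (5.08, SE 1.11, adjusted p = 0.00513). CXCL3 was at 46.6, 28.1 and 152 against 2.31, 1.6 and 1.23 CPM (5.21, SE 0.54), and CXCL1 at 0.986, 0.449 and 10.5 against 0, 0.0254 and 0.127 CPM (5.86, SE 1.13). RasV12 replicate 3 was the highest in each of these neutrophil chemokines, and the lines did not overlap. Without it CXCL8 was 2.51, CXCL3 4.33, CXCL1 3.98 and CXCL2 2.94, and all 4 were still called. Leaving out RasV12 replicate 1 gave 5.92 for CXCL8, leaving out RasV12 replicate 2 gave 5.86 for CXCL8, 6.65 for CXCL1 and 4.65 for CXCL2, and leaving out MekDD replicate 3 gave 6.70 for CXCL1. CXCL1, CXCL2 and CXCL3 are near-identical copies, so the split of reads among them is uncertain. CCL2, the monocyte chemokine, went the other way, at 0.0365, 0.0236 and 0.225 against 39.9, 6.74 and 8.54 CPM (-7.66, SE 0.68, adjusted p = 1.04e-05). It rested on 7 reads in RasV12 and was -6.86 without RasV12 replicate 1 and -9.23 without RasV12 replicate 3. ACKR3, a scavenging receptor of CXCL12, was at 1.97, 1.18 and 0.991 against 21.4, 29.6 and 28.1 CPM (-4.40, SE 0.35). In T53D4 CCL2 averaged 63.1 ± 37.4 and ACKR3 83.1 ± 36.6 CPM. ACKR3, CXCL2 and IL18 were named after their values were seen.

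**Figure D3:**
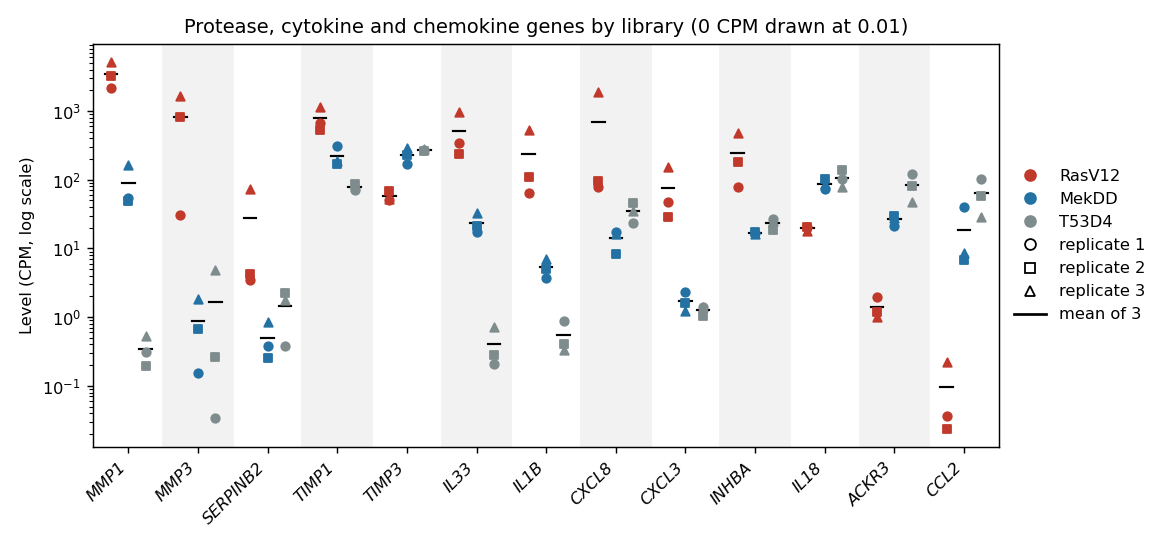
Level per library (CPM, log vertical axis, 0 drawn at 0.01) of 13 protease, cytokine and chemokine genes in RasV12 (red), MekDD (blue) and T53D4 (grey), with the replicate number as the symbol and the mean as a bar. RasV12 replicate 3 is the top point for SERPINB2, IL1B, CXCL8 and INHBA, and TIMP3, IL18, ACKR3 and CCL2 lie lower in RasV12.

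Ligands of the TGF-beta family split by member. Of 38 tested genes of TGF-beta and BMP signalling, 9 rose (23.7%) and 5 fell (13.2%), with a median of -0.06, against 12.4% and 13.9% of all tested genes. INHBA, the activin A subunit, was at 77, 178 and 484 against 16.6, 17.6 and 16.3 CPM (3.68, SE 0.45, adjusted p = 1.03e-04), and was 3.00 without RasV12 replicate 3. BMP2 was at 137, 105 and 151 against 37.1, 33.8 and 28.2 CPM (1.99, SE 0.16), and ID1, an inhibitor of differentiation induced by BMP signals, at 217 ± 38.9 against 48.8 ± 29.8 CPM (2.26, SE 0.22). None of these 3 overlapped between lines. TGFB2, a ligand that the pigment epithelium makes in quantity, was at 109, 90.1 and 109 against 714, 451 and 488 CPM (-2.36, SE 0.26, adjusted p = 4.67e-05). BMP4 was at 18.6, 14.7 and 15.2 against 35.9, 82.8 and 109.8 CPM (-2.11, SE 0.32). TGFB2 averaged 938 ± 387 CPM in T53D4 and BMP4 78.4 ± 35.3 CPM, so for these ligands it was RasV12 that stood apart from T53D4. BMP2 was named after its values were seen.

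More WNT and IGF genes fell than rose. Of 27 tested WNT ligands, receptors and antagonists, 3 rose and 10 fell, with a median of -0.33, and without the block 1 rose and 9 fell. WNT5B, a ligand of non-canonical signalling, was at 1.53, 0.426 and 0.766 against 26.8, 14.9 and 8.12 CPM (-4.23, SE 0.36, adjusted p = 6.55e-06). SFRP4, a secreted WNT antagonist, was at 0.0365, 0.142 and 0.0451 against 13.8, 4.07 and 5.16 CPM (-6.42, SE 0.48). SFRP4 rested on 8 reads in RasV12 and was -5.28 without RasV12 replicate 1 and -7.93 without RasV12 replicate 2. TCF7L1, a repressor of WNT target genes, fell as well (-2.78, SE 0.32). Of 18 IGF and insulin signalling genes, 2 rose and 6 fell. PAPPA, the protease that frees IGF from its binding proteins, was at 11.2, 11.7 and 18.3 against 1.46, 3.48 and 3.47 CPM (2.32, SE 0.25). IGFBP5, a binding protein, was at 19.3, 12.2 and 11.4 against 653, 141 and 77.4 CPM (-3.49, SE 0.81, adjusted p = 0.00734). MekDD replicate 1 was the highest by far, and the IGFBP5 call was lost without the block (log2 difference -4.35, adjusted p = 0.0943). IGFBP5 was -2.83 without RasV12 replicate 1 and -4.24 without RasV12 replicate 3.

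The desmosomal genes DSP, PKP2 and JUP were lower in RasV12. Of 30 tested epithelial junction and keratin genes, 5 rose and 12 fell, with a median of -0.47. DSP, the desmosomal linker desmoplakin, was at 78.7, 102 and 101 CPM in RasV12, 256, 254 and 247 CPM in MekDD and 246 ± 4.74 CPM on average in T53D4 (-1.43, SE 0.15, adjusted p = 2.79e-05). PKP2, the desmosomal protein plakophilin 2, was at 16.9, 21.7 and 15.5 against 47.5, 65.7 and 50.3 CPM (-1.60, SE 0.11, adjusted p = 1.06e-06), and JUP, plakoglobin, at 8.03, 7.61 and 9.46 against 20.8, 36.8 and 37.3 CPM (-1.95, SE 0.33). For DSP the MekDD libraries lay near T53D4 and RasV12 lay below both. AKTmyr was also low in DSP, at 128 ± 32 CPM, and ARPE19 was at 321 ± 28.8 CPM. ESRP2, an epithelial splicing factor, fell from 5.81 ± 0.495 to 0.78 ± 0.112 CPM (-2.88, SE 0.20). LAMB3, a laminin chain of epithelial basement membrane, rose instead, at 138, 146 and 256 against 23.8, 35.2 and 45.1 CPM (2.37, SE 0.27), while its partner chain gene LAMA3 fell (-2.24, SE 0.43).

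KRT7, a simple epithelial keratin, was an exception in which MekDD stood apart. It was at 877, 945 and 1545 CPM in RasV12 and at 40.1, 29.9 and 28.6 CPM in MekDD (5.16, SE 0.44, adjusted p = 7.25e-06), and 4.52 without RasV12 replicate 3. T53D4 had 1610.0, 1436 and 943 CPM, AKTmyr 1537 ± 962 and ARPE19 1767 ± 502 CPM, so every line of the series but MekDD averaged a high KRT7 level. CASP4, the inflammatory caspase that senses lipopolysaccharide, was at 38.7, 42.3 and 37.3 against 1.15, 1.22 and 0.761 CPM (5.28, SE 0.21, adjusted p = 2.89e-08), with 17.1 ± 5.26 CPM in T53D4. YEATS2, a subunit of a histone acetyltransferase complex, was at 77.9, 70.6 and 59.2 against 1137, 922 and 829.6 CPM (-3.79, SE 0.11, adjusted p = 1.52e-09). The other lines had 87.4 ± 11.5 (T53D4), 102 ± 3.57 (AKTmyr) and 107 ± 13.6 CPM (ARPE19), so the 3 MekDD libraries stood apart from all other libraries' line means for YEATS2.

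Of 23 tested contractile genes, 1 rose and 10 fell, with a median of -0.47. TAGLN, the actin-binding protein SM22, was at 15.6, 9.55 and 17.3 against 220.4, 148 and 97.1 CPM (-3.23, SE 0.67, adjusted p = 0.00356), and -4.30 without RasV12 replicate 3. MYH9, the heavy chain of non-muscle myosin IIA, was at 1902, 1843 and 2571 against 4668, 3934 and 4965 CPM (-1.10, SE 0.21, adjusted p = 0.0026). MYL9, a myosin light chain, was at 40.5, 62.4 and 99.2 against 182, 231 and 271 CPM (-1.73, SE 0.45, adjusted p = 0.0138). No library of one line reached into the other for these genes. The MYL9 call was lost without MekDD replicate 3 (adjusted p = 0.101) and without RasV12 replicate 2 (0.0719), and its difference was -2.51 without RasV12 replicate 3. CNN1, calponin, was near the low end, at 0.219, 0.331 and 0.0451 against 2.9, 3.66 and 1.44 CPM (-3.93, SE 0.69). Its call was lost without the block (adjusted p = 0.066), and its difference was -4.66 without MekDD replicate 1, -3.19 without RasV12 replicate 1 and -5.01 without RasV12 replicate 2.

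YAP and TEAD targets report on the transcriptional side of cell tension, and of 24 tested none rose and 11 fell, with a median of -0.47. Without the block 6 fell. CRIM1, a transmembrane protein that binds BMPs, was at 479.8, 331 and 616 against 1384, 1075 and 1629 CPM (-1.53, SE 0.23, adjusted p = 4.02e-04). AJUBA, a LIM protein of the Hippo pathway, was at 170.1, 204 and 151 against 328, 312 and 319 CPM (-0.87, SE 0.14). Both separated the lines. Of the 11 members that fell, 2 fell by at least 2-fold, and the lowest log2 difference of the list was -2.36. CCN1, a secreted protein widely used as a YAP readout, was at 1183, 912 and 996 against 2232, 1557 and 1333 CPM (-0.69, SE 0.15, adjusted p = 0.00586), a call lost without the block (adjusted p = 0.14). CCN2, its close relative, was at 139 ± 26 and 249.6 ± 106 CPM (-0.72, SE 0.34, adjusted p = 0.141) and was not called. With the 2 lines alone and the block, the edgeR test called CCN2 lower (-0.77, adjusted p = 0.0106). The T53D4 level of CCN1 was 1856 ± 629 CPM, within the spread of MekDD at 1707 ± 468 CPM. DSP, JUP, MYH9, CCN1 and CCN2 were named after their values were seen.

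Matrix genes held both some of the largest rises and many falls. Of 24 tested collagen chain genes, of 29 in the table, 4 rose and 10 fell, with a median of -0.54, and without the block 2 rose and 6 fell. COL6A3, a chain of the microfibrillar collagen VI, was at 41.3, 33.2 and 17.8 against 0.499, 0.127 and 0.0423 CPM (7.10, SE 0.49, adjusted p = 1.41e-06), and 8.07 without MekDD replicate 1. COL6A1, another chain of collagen VI, fell from 29 ± 4.72 to 6.71 ± 0.64 CPM (-2.08, SE 0.30). COL4A1, a basement membrane collagen, was at 74.3, 53.6 and 84.7 against 434, 201 and 229 CPM (-1.85, SE 0.39, adjusted p = 0.00438). It overlaps COL4A2 on the other strand, its call was lost without the block (adjusted p = 0.0551), and it was -2.43 without RasV12 replicate 3. POSTN, the matricellular protein periostin, was at 11.8, 45.4 and 114 against 0.436, 0.534 and 0.888 CPM (6.65, SE 0.92), with 13.9 ± 11.8 CPM in T53D4, so MekDD was the low line. POSTN was 7.41 without RasV12 replicate 1 and 5.98 without RasV12 replicate 3. FBLN1, the matrix protein fibulin 1, was at 2.78, 1.09 and 1.76 against 67.9, 38.2 and 33.1 CPM (-4.73, SE 0.38).

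Integrin genes, the receptors for this matrix, were split in 3 rises and 4 falls among 16 tested. ITGA2, a collagen receptor subunit, was at 52.3, 74.6 and 136 against 16.6, 21.2 and 14.2 CPM (2.28, SE 0.28, adjusted p = 9.88e-05). ITGA5, the fibronectin receptor subunit, was at 510.0, 678 and 1003 against 303, 292 and 295 CPM (1.32, SE 0.25). ITGA4 was at 24.4, 16.3 and 18.1 against 95, 74.2 and 70 CPM (-2.03, SE 0.15, adjusted p = 2.26e-06). None overlapped between the lines, and ITGA4 shares its span with CERKL on the other strand. ITGB4, the hemidesmosome subunit, was at 16.4, 11.4 and 12 against 36.5, 44.5 and 75.2 CPM (-2.08, SE 0.52), and without MekDD replicate 3 it was -1.42 and not called (adjusted p = 0.0686).

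Of 19 tested mesenchymal genes, 6 rose and 3 fell, with a median of 0.36, and without the block 3 rose and 2 fell. CDH13, a cadherin without a cytoplasmic tail, was at 9.57, 7.71 and 8.65 against 0.343, 0.56 and 0.55 CPM (4.16, SE 0.30, adjusted p = 2.06e-06), and T53D4 stood between them at 3.93 ± 1.24 CPM. CD44, the hyaluronan receptor, was at 1175, 1133 and 1432 against 835, 594 and 529 CPM (0.94, SE 0.15). SNAI1, a repressor of E-cadherin, was low in both lines at 2.34 ± 1.54 and 0.5 ± 0.14 CPM (2.29, SE 0.57), and was 2.91 without RasV12 replicate 1 and 1.49 without RasV12 replicate 3. CDH11, a mesenchymal cadherin, was at 31, 18.8 and 21.9 against 112, 70.5 and 88 CPM (-1.92, SE 0.15, adjusted p = 3.04e-06). CDH2, N-cadherin, fell from 358 ± 142 to 189 ± 28.3 CPM (-0.85, SE 0.16), a call lost without the block (adjusted p = 0.0533). CDH2 was named after its values were seen.

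Pigment epithelium genes were called lower more often than higher. Of 25 tested identity genes, of 27 in the table, 2 rose and 6 fell, with a median of -0.42. STRA6 had the largest rise of the list (3.08, adjusted p = 0.00889). It was 2.45 without MekDD replicate 2 and 4.35 without MekDD replicate 3. The STRA6 call was lost without replicate 2 in both lines (adjusted p = 0.0767) and with the 2 lines alone and no block (0.0944). MITF, the factor that sets pigment cell identity, was at 25.1, 31.2 and 26.3 CPM in RasV12, 40.3, 67.4 and 88.9 CPM in MekDD and 66.1, 107 and 105 CPM in T53D4 (-1.19, SE 0.19, adjusted p = 6.68e-04). SERPINF1, the secreted factor PEDF, was at 9.79, 11.5 and 6.44 against 25.8, 24.9 and 28.1 CPM (-1.55, SE 0.20). T53D4 held 7.9 ± 1.03 CPM of SERPINF1, so here MekDD was above the background and RasV12 was near it, while for MITF RasV12 was the low line. OTX2 was not called (log2 difference -0.07, SE 0.16, adjusted p = 0.768).

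Among cell cycle genes, several regulators of G1 were called. Of 20 tested D cyclins, CDKs and CDK inhibitors, 5 rose and 5 fell. CDK4 (3.73, SE 0.11) and CCND1 (1.51, SE 0.22) rose, but their reads mix with those of the constructs, and both spans overlap genes on the other strand. CDKN1A, the inhibitor p21, was at 371, 555 and 547 against 204, 152 and 139.8 CPM (1.63, SE 0.24, adjusted p = 3.81e-04). CDK6 was at 28.8, 22.7 and 20.8 against 113, 67 and 64.5 CPM (-1.72, SE 0.12, adjusted p = 1.63e-06). CDKN2A, the locus of p16 and ARF, was at 11.4, 7.43 and 7.07 against 26, 19.6 and 24.6 CPM (-1.47, SE 0.12), and a gene on the other strand overlaps it. In these 3 genes the lines did not overlap. Of 27 p53 targets tested, 7 rose and none fell, with a median of 0.31, and after CDKN1A the largest were the kinase gene PLK3 (1.36, SE 0.26) and the sestrin gene SESN2 (1.18, SE 0.22).

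Few replication and mitotic genes were called. Of 42 DNA replication genes, 2 rose and 1 fell, and none was called without the block. Of 39 tested kinetochore and spindle checkpoint genes, 1 rose and 1 fell, and of 50 mitotic kinase, spindle and cytokinesis genes, 2 rose. The list medians were -0.08, 0.13 and 0.11. AURKA, the kinase of the spindle poles, was at 188, 172 and 115 against 93.5, 103 and 78.1 CPM (0.81, SE 0.27, adjusted p = 0.0424). Its groups did not overlap, but the call was lost without the block (adjusted p = 0.0629) and on leaving out MekDD replicate 1 (0.0638), 2 (0.0677) or 3 (0.166) or RasV12 replicate 1 (0.195) or 2 (0.144). UBE2C, the ubiquitin-conjugating enzyme of the anaphase-promoting complex, was at 171, 142 and 99.7 against 86.9, 71.5 and 56.4 CPM (0.94, SE 0.23, adjusted p = 0.00957), and its adjusted p was 0.0525 without RasV12 replicate 2. BUB3, a checkpoint protein, was at 501, 380.0 and 378 against 339.5, 270.2 and 229.8 CPM (0.58, SE 0.17, adjusted p = 0.0244). The BUB3 call was lost without MekDD replicate 2 (0.0573) or 3 (0.123) or RasV12 replicate 1 (0.107) or 2 (0.067). BUB1, a checkpoint kinase, was at 147 ± 34.7 and 128 ± 20.8 CPM (0.19, SE 0.24, adjusted p = 0.599), and AURKB, the kinase of the chromosomal passenger complex, at 61.1 ± 11.6 and 56.6 ± 10.6 CPM (0.11, SE 0.20, adjusted p = 0.72). AURKA and UBE2C lie on chromosome 20 and BUB3 on chromosome 10, each after the largest gap between genes, in regions whose median log2 differences were 0.40 and 0.27. Their part in these 3 calls was not tested.

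**Figure D4:**
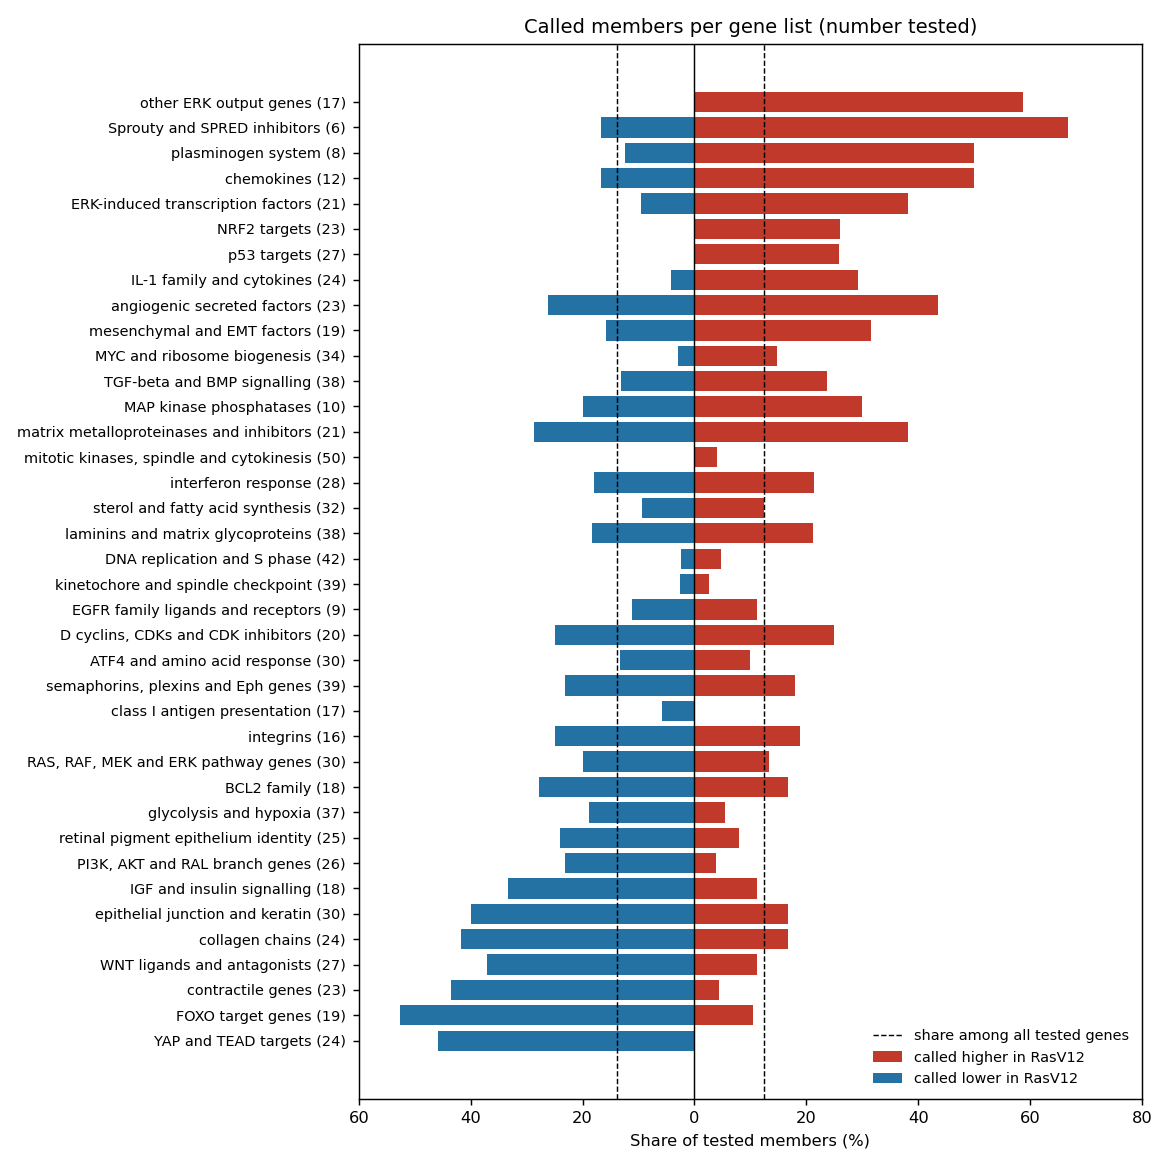
Share of the tested members of each gene list called higher in RasV12 (red, to the right) or lower (blue, to the left), in percent, with dashed lines at the shares among all tested genes, 12.4% and 13.9%. Other ERK output genes and Sprouty and SPRED inhibitors have the largest shares to the right, and FOXO, YAP and TEAD and contractile genes reach furthest to the left.

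Genes on chromosome 10 and on 1 side of chromosome 20 had shifted medians. Genes were placed before or after the largest gap between genes on each chromosome, a stand-in for the centromere, and 10544 genes averaging 5 CPM or more were used, of which 12.7% were higher, 13.3% lower and the median log2 difference was 0.02. On chromosome 10 before the gap, 52 of 99 genes were lower and 2 higher, with a median of -0.36, and the pair medians were -0.31, -0.31 and -0.53. After the gap on chromosome 10, 113 of 327 genes were higher and 23 lower, with a median of 0.27 (pairs 0.22, 0.20 and 0.33). On chromosome 20 after the gap, 104 of 191 genes were higher and 6 lower, with a median of 0.40 (pairs 0.34, 0.46 and 0.38). Medians for the other chromosome sides lay within 0.1 of 0, with chromosome 20 before the gap at 0.099. Against T53D4, the median log2 ratio of means in these 3 regions was -0.31, 0.31 and 0.30 for RasV12 and 0.07, 0.01 and -0.08 for MekDD. Leaving all genes of both chromosomes out of the counts gave 1418 genes higher and 1779 lower, a choice made after the data were seen. DUSP5, EGR2, ID1, ACSS2, CEBPB and SNAI1 also lie in the regions with a higher median, and their differences of 1.29, 2.13, 2.26, 0.91, 1.69 and 2.29 exceeded those medians. MMP24, MYL9 and PLCE1 fell although they lie in the same regions. NRP1, AKR1C1 and AKR1C2 rose although they lie on chromosome 10 before the gap, where the median was lower.

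**Figure D5:**
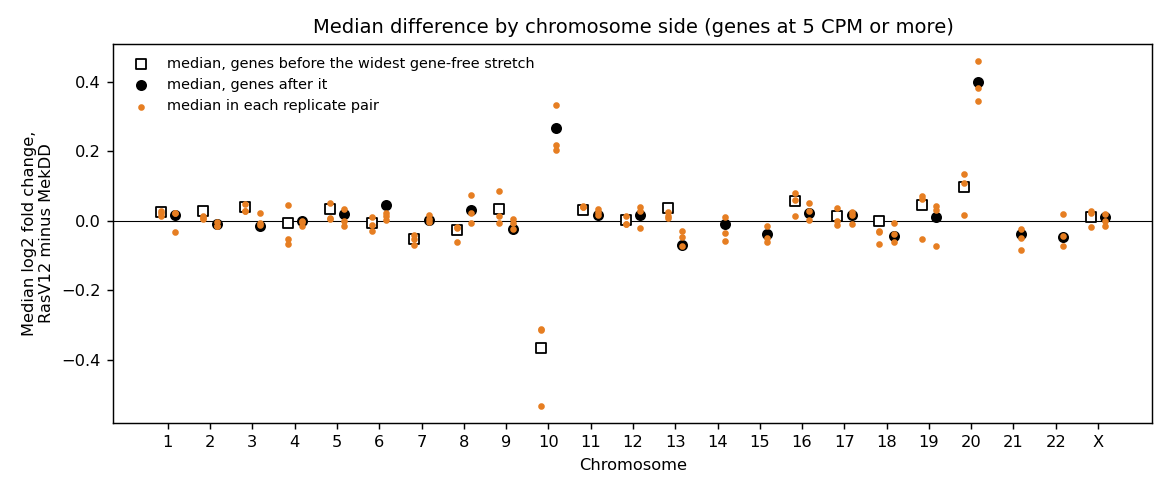
Median log2 difference (RasV12 minus MekDD, vertical axis) of genes with at least 5 CPM, for each chromosome before (open squares) and after (filled circles) its largest gap between genes, with small orange points for the 3 replicate pairs. The side of chromosome 10 before the gap lies at -0.36, the side after it at 0.27 and that of chromosome 20 after the gap at 0.40, and the other sides lie within 0.1 of 0.

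The remaining lists held shorter sets of changes. Of 23 NRF2 target genes, 6 rose and none fell, with a median of 0.21. AKR1C1, an aldo-keto reductase of the oxidant response, was at 6.65, 8.23 and 11.3 against 0.0623, 0.127 and 0.0423 CPM (6.64, SE 0.50, adjusted p = 3.04e-06), but it shares near-identical sequence with AKR1C2 (6.15, SE 0.44). Of 18 BCL2 family genes, 3 rose and 5 fell, and without the block 2 rose and 3 fell. The survival genes MCL1, at 886, 557 and 542 against 365, 305 and 247 CPM (1.10, SE 0.10, adjusted p = 1.50e-05), and BCL2A1, at 9.82, 3.22 and 16.3 against 0.468, 0.254 and 0.0845 CPM (4.86, SE 0.53), rose. BCL2A1 was 4.11 without MekDD replicate 3, 5.52 without RasV12 replicate 2 and 4.05 without RasV12 replicate 3. The death-promoting genes HRK (-3.04, SE 0.36) and BOK (-1.17, SE 0.14) fell. Of 28 interferon response genes, 6 rose and 5 fell, and 3 and 1 without the block. IFI44L, induced by type I interferon, was at 20.4, 30.3 and 33.9 against 3.55, 3.36 and 3.21 CPM (3.03, SE 0.29). Among 17 class I antigen presentation genes, the peptidase gene ERAP1 fell (-0.71, SE 0.15) and none rose.

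Of 23 tested angiogenic secreted factors, 10 rose and 6 fell, and 5 and 2 without the block. ESM1, a proteoglycan of angiogenic vessels, was at 83.8, 7.17 and 23.1 against 3.18, 0.738 and 0.592 CPM (4.41, SE 0.39, adjusted p = 1.04e-05). RasV12 replicate 1 was its highest library, unlike the cytokines, and all 3 exceeded MekDD. EDN1, the vasoconstrictor endothelin 1, averaged 0.819 ± 0.564 CPM in RasV12 and 8.48 ± 5.96 CPM in MekDD (-3.54, SE 0.52), a call lost without the block (adjusted p = 0.0537), and -4.27 without RasV12 replicate 3. Of 39 tested semaphorin, plexin and Eph genes, 7 rose and 9 fell, and 7 and 5 without the block. NRP1, a co-receptor of semaphorins and VEGF, was at 263, 313 and 408 against 107, 129.9 and 107 CPM (1.47, SE 0.20), and its ligand gene SEMA3A rose from 12.1 ± 1.9 to 29.3 ± 9.96 CPM (1.26, SE 0.27). EFNB3, an ephrin ligand, fell (-2.76, SE 0.25). NRP1 and SEMA3A were named after their values were seen.

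Of 37 glycolysis and hypoxia genes, 2 rose and 7 fell, with a median of 0.02, and without the block 1 rose and 3 fell. SLC2A1, the glucose transporter GLUT1, was at 538, 370.2 and 313 against 1040.5, 535 and 732 CPM (-0.90, SE 0.13), with an overlap between the groups but the same direction in each pair. EGLN3, a sensor of oxygen, fell (-2.69, SE 0.34). Of 32 tested sterol and fatty acid synthesis genes, 4 rose (12.5%) and 3 fell (9.38%), with a median of 0.21. These shares were near or below the 12.4% and 13.9% of all tested genes. Without the block 2 of the list rose and none fell. ACSS2, which makes acetyl-CoA from acetate, was at 47.5, 54 and 41.9 against 25.1, 26.8 and 24.4 CPM (0.91, SE 0.12). Of 30 ATF4 targets and amino acid response genes, 3 rose (10%) and 4 fell (13.3%), also near those shares, with a median of -0.32. Without the block 2 rose and none fell. CEBPB, a transcription factor of stress and inflammation, was at 275, 244 and 246 against 74.6, 86.6 and 75 CPM (1.69, SE 0.16). Of 34 MYC and ribosome biogenesis genes, 5 rose and 1 fell, with a median of 0.18, and 2 and none without the block. ODC1, the first enzyme of polyamine synthesis, was at 397, 414 and 472 against 214, 189 and 173 CPM (1.15, SE 0.13).

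Several genes outside the lists separated the lines by a wide margin. PTGFRN, a tetraspanin partner at the cell surface, was at 2.04, 0.875 and 1.71 against 72.6, 45.9 and 64.2 CPM (-5.38, SE 0.24, adjusted p = 4.99e-08). KLF13, a zinc finger factor, was at 5.51, 5.11 and 8.11 against 55.3, 49 and 52.9 CPM (-3.08, SE 0.17), and T53D4 averaged the same level as MekDD, 52.4 ± 7.29 against 52.4 ± 3.14 CPM. GALNT17, a glycosyltransferase gene, had 2 reads in the 3 RasV12 libraries and 1401 in MekDD. It was 677 times higher in MekDD, with a 95% exact binomial interval of 187.1 to 5596 that covers counting error only. THBD, the anticoagulant receptor thrombomodulin, was at 172, 145 and 122 against 7.67, 9.95 and 10.5 CPM (3.95, SE 0.24, adjusted p = 5.07e-07). TREM1, a receptor best known from myeloid cells, was at 77.6, 37.8 and 98.3 against 1.9, 1.58 and 6.55 CPM (4.61, SE 0.30), while PTPRC, which marks leukocytes, stayed at 4 and 5 reads. EIF5A2, a translation factor, was at 57.3, 69 and 53.4 against 15.7, 17.7 and 15.2 CPM (1.88, SE 0.10), and TPBG, an oncofetal membrane protein, at 74.6, 56.4 and 56.1 against 22.5, 17.1 and 17 CPM (1.72, SE 0.09). For both of these T53D4 averaged close to MekDD, at 15.9 ± 1.4 and 17.4 ± 3.29 CPM.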

How the data were processed

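RNA levels were measured by directional poly(A) sequencing, 2 x 150 bp, in 15 libraries of 5 lines, grouped by the line named in the labels. Tests used the authors' deposited raw counts. Build hg38 and, among the tools, featureCounts 1.6.4 and HISAT2 2.1.0 are listed in the submitters' processing notes. Settings, strand use included, are not given in the sources used here. The table held 15510 genes, each with at least 10 reads in total, and 7 construct rows. Construct rows and 12 chromosome Y genes were left out of library sizes and tests.

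Genes passing filterByExpr (minimum count 10) were fitted on all 15 libraries with line and replicate number as factors, using edgeR 4.0.16 in R 4.3.3 (TMM, glmQLFit, glmQLFTest). Adjusted p-values are Benjamini-Hochberg over 13588 genes. The replicate block was used because the comparison pairs libraries by the labels' numbers. The correlations within number were 0.377 to 0.463 and those across numbers ran from -0.37 to -0.03. Reads carry no molecular identifiers, so intervals cover counting error only. On simulated counts 90 of 100 genes changed by a log2 of 1 and 100 of 100 changed by 2 were recovered, with 7 false calls among 13218 genes. The simulation gave all genes the same spread and a replicate effect shared by all lines, and changed only genes with many reads. It therefore checks the fit and does not give the error rate of the calls here.

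The members and gene lists were chosen with earlier results of these data known. Genes named are a fixed set of construct and pathway genes, the 12 largest rises and falls at 5 CPM or more without overlap, up to 4 called members per list at 1 CPM or more, and the 8 largest ratios of change to SE each way at 50 CPM or more. Others are marked as named after their values were seen. Alternatives were DESeq2 1.42.0, RLE factors, no count filter, constructs kept, the 2 lines alone, no block, and leaving out libraries or pairs. Results for some genes are not reported here.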

Additional observations from a re-analysis of the deposited data

Results flagged for a closer look

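The MEK-DD construct row, which no comparison of genes uses, held 6 reads over the 3 RasV12 libraries, a line that by its label never received this construct. The row had 0 reads in parental ARPE19 and 4 reads each in T53D4 and AKTmyr, against 19460, 40003 and 15051 reads in the MekDD libraries.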

How the results depend on the processing

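With no replicate block, 967 genes were higher and 1131 lower, and with the 2 lines alone and no replicate block 883 and 1073. Of the 2098 genes called without the block, 2096 were also called with it, in the same direction. Leaving out replicate 2 in both lines gave 811 and 1011. Leaving out 1 library at a time gave 1142 to 1553 genes higher and 1280 to 1838 lower, and 499 to 606 higher and 644 to 883 lower by at least 2-fold. DESeq2 gave 2009 and 2064. Counts with RLE factors, no count filter, constructs kept or the 2 lines alone with the block stayed within 1.5 times. Of 198 named genes, 31 lost their call without the block and 39 without replicate 2 in both lines. Signs reversed in genes that were not called: leaving out 1 library at a time gave -0.043 to 0.27 for AURKB, -0.049 to 0.40 for BUB1, -0.23 to 0.017 for MAP2K1 and -0.16 to 0.025 for OTX2, which was 0.071 without replicate 3 in both lines. Genes under 1 CPM rest on few reads.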
